A study of Mus musculus with 16 samples.

Results

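The 10 genes described here encode enzymes of glycolysis and lactate production: Hk2, Gpi1, Pfkl, Aldoa, Tpi1, Gapdh, Pgk1, Pgam1, Pkm and Ldha. They were taken by name from the 24421 rows of a table of read counts per gene, in which each was found once. The libraries came from CD11b+ cells, a population rich in microglia, which were pulled with magnetic beads from the brains of female C57BL/6J mice whose diets had begun after weaning. CON mice received a standard diet and were gavaged with buffer (4 libraries). MAL mice received an isocaloric diet low in protein and fat for about 1 month and were gavaged with buffer (5 libraries). MAL-BG mice received the same low-protein, low-fat diet and repeated gavages of a commensal mix of E. coli and Bacteroidales (7 libraries). No group analysed here received the bacteria on the standard diet, so the bacteria were compared only within the malnourished diet. The labels name cortical tissue and the study's methods name whole cerebra. The sources do not state that each library came from 1 mouse, so the p-values measure the spread between these libraries.

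Glycolysis splits glucose into pyruvate in the cytosol. Hexokinase traps glucose as its phosphate, phosphofructokinase commits it to the pathway, and aldolase and triose phosphate isomerase turn the 6-carbon sugar into triose phosphates. The later enzymes recover ATP and NADH, and lactate dehydrogenase passes electrons from NADH to pyruvate. Most steps are catalysed by 1 of several isoenzymes that differ between cell types. Microglia, the macrophages of the brain parenchyma, can use both glycolysis and mitochondrial respiration, and raised glycolysis is a known feature of their inflammatory activation.

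The libraries held 10312703 to 18705202 counts, and the MAL-BG libraries were deeper (at least 14191791) than those of CON and MAL (at most 13461574). Levels below are CPM, read counts divided by library size and set to a common scale by the TMM method. The summed CPM of 12 microglial markers was 17959 to 28957 in CON, 18578 to 31475 in MAL and 38383 to 51989 in MAL-BG. Markers of other cells were also present. The summed CPM of 9 choroid plexus markers was 13799 to 53588 in CON, 6400 to 42159 in MAL and 1759 to 16377 in MAL-BG, and 12 neutrophil markers summed to 55.9 to 209, 45.1 to 334 and 197 to 13742 CPM. The CON and MAL libraries lowest in choroid plexus genes were CON 1 (13799 CPM), MAL 1 (12333 CPM) and MAL 4 (6400 CPM), and the library highest in neutrophil genes was MAL-BG 5 (13742 CPM). In bulk RNA, fewer cells of a type and less RNA per cell cannot be told apart.

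Compared with CON, MAL-BG libraries held more Hk2 mRNA and less Aldoa, Gapdh and Pgam1 mRNA. All 10 enzymes passed the filter on low counts (more than 10 counts in at least 4 libraries), as did 14565 genes in all. A gene was called when its adjusted p was under 0.05 and its log2 fold change beyond 0.58 in either direction. By this rule 1 of the 10 enzymes was called higher, where 11.4% of all genes tested were, and 3 were called lower, where 21.7% of all genes were. The median log2 fold change of the 10 was -0.34, against -0.04 over all genes tested. By the adjusted p alone, 3 of the 10 were higher (Hk2, Pfkl, Ldha; 19.8% of all genes) and 4 were lower (Aldoa, Tpi1, Gapdh, Pgam1; 25.2% of all genes). Of 26 alternatives, Pfkl lost that p in 15, Ldha in 12, Tpi1 in 5, Aldoa in 4 and Pgam1 in 1, and Hk2 and Gapdh in 0. Offsets for gene length and GC content, combined with scaling by the mean log2 CPM, moved the median of all genes to 0.21, and then called 2 enzymes higher (Hk2, Pfkl) and 1 lower (Pgam1).

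Compared with MAL, MAL-BG libraries had 1 of 10 enzymes called, Hk2, which was higher (10.2% of all genes), and 0 called lower (20.2% of all genes). By the adjusted p alone, Hk2, Pfkl and Ldha were higher (20.2% of all genes) and Gapdh was lower (24.1% of all genes). The median log2 fold change of the 10 was -0.17, against -0.03 over all genes. The CON and MAL comparisons share the 7 MAL-BG libraries, so they are not independent of each other. No enzyme had all 7 MAL-BG libraries above, or all 7 below, every CON and MAL library, a separation seen in 6.17% and 6.36% of all genes tested.

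**Figure D1:**
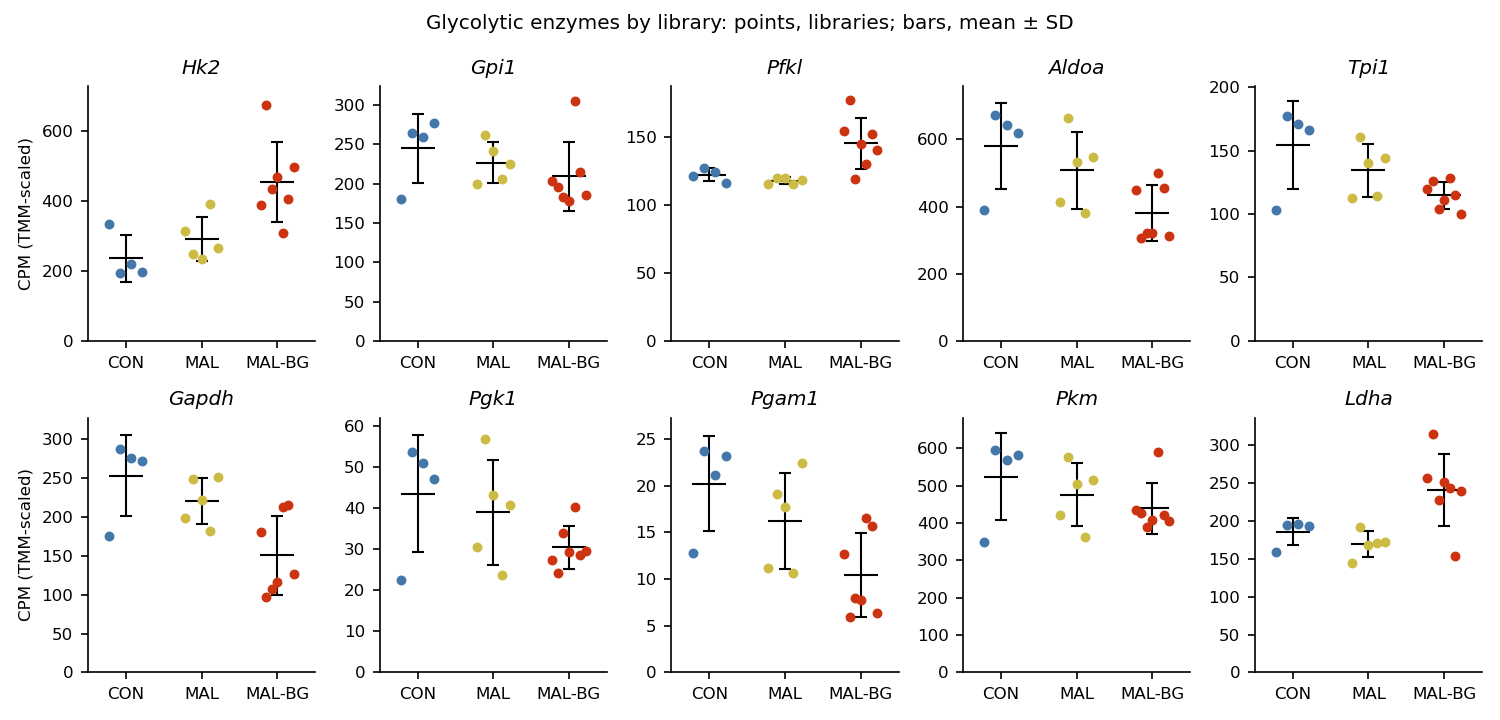
TMM-scaled CPM of each of the 10 enzymes (y axis, from 0) in the libraries of the CON, MAL and MAL-BG groups (x axis), with each library as a point and the mean ± SD as bars. Hk2 was highest in MAL-BG (mean 453 CPM), Aldoa, Gapdh and Pgam1 were lowest there, and 6 of 7 MAL-BG libraries lay above all others for Pfkl and Ldha.

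Hk2 encodes hexokinase 2, an inducible hexokinase that can bind mitochondria. It stood at 334, 193, 220 and 196 CPM in the CON libraries and at 314, 248, 234, 391 and 265 CPM in the MAL libraries. In MAL-BG it ranged from 308 to 674 CPM with a median of 432 CPM. Of the 7 MAL-BG libraries 5 lay above every CON and MAL library, and the exceptions were MAL-BG 1 (389 CPM) and MAL-BG 5 (308 CPM). The difference was 0.94 ± 0.21 log2 units (SE) from CON, or 1.92-fold (adjusted p = 0.00199), and 0.64 ± 0.19 from MAL, or 1.56-fold (adjusted p = 0.013). Against CON the call was kept in each of 26 other settings and libraries left out, with differences of 0.86 to 1.25. Against MAL the difference fell just short of the fold threshold without MAL 3 (0.57) or without MAL-BG 2 (0.56).

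Gpi1, the isomerase that makes fructose 6-phosphate, did not pass the test. Its mean was 245 ± 44 CPM (SD, n = 4) in CON, 227 ± 25.6 (n = 5) in MAL and 210 ± 43.8 (n = 7) in MAL-BG, and its log2 differences were -0.23 ± 0.15 from CON (adjusted p = 0.232) and -0.12 ± 0.14 from MAL (adjusted p = 0.528). Those differences turned to 0.13 and 0.21 when length and GC offsets were combined with mean log2 scaling.

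Pfkl encodes the liver-type subunit of phosphofructokinase. It had the smallest spread of the 10 in the buffer-gavaged groups, relative to its mean, with 121, 127, 124 and 116 CPM in CON and 115, 120, 120, 115 and 118 CPM in MAL. In MAL-BG it ranged from 119 to 177 CPM with a median of 145 CPM, and 6 of 7 libraries lay above every CON and MAL library. MAL-BG 3, at 119 CPM, lay among them. The log2 differences of 0.25 ± 0.10 from CON (adjusted p = 0.0445) and 0.31 ± 0.09 from MAL (adjusted p = 0.0117) stayed below the fold threshold. Against CON the adjusted p was 0.05 or more (up to 0.119) without any 1 of the CON or MAL libraries, without MAL-BG 5 or 6, with no filter or the filter of more than 50 counts, with the 2 groups fitted alone and with thinned libraries. Against MAL it stayed under 0.05 in all 26 alternatives. With length and GC offsets and mean log2 scaling they were 0.72 and 0.71.

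Aldoa encodes aldolase A and had the highest level per kilobase of the 10. It stood at 391, 672, 642 and 618 CPM in CON and at 413, 665, 532, 381 and 548 CPM in MAL. In MAL-BG it ranged from 306 to 500 CPM with a median of 321 CPM. The groups overlapped: 4 of 7 MAL-BG libraries lay below every CON and MAL library, and CON 1, MAL 1 and MAL 4 lay within the MAL-BG range. Aldoa fell by 0.61 ± 0.19 log2 units against CON (adjusted p = 0.0153). That call lies at the fold threshold, and it was lost in 7 of 26 alternatives, namely without CON 2, without CON 3, without each of MAL-BG 2, 3, 4 and 7, and with length and GC offsets and mean log2 scaling (-0.40). The log2 difference from MAL was -0.42 ± 0.18 (adjusted p = 0.0676).

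Tpi1, triose phosphate isomerase, averaged 154 ± 34.7 CPM in CON (n = 4), 134 ± 20.8 in MAL (n = 5) and 115 ± 10.7 in MAL-BG (n = 7). Its log2 difference from CON of -0.43 ± 0.14 passed the adjusted p (0.0212) but not the fold threshold, and lost the adjusted p without CON 2, 3 or 4 or without MAL-BG 4 or 7 (up to 0.0838). Its difference from MAL was -0.23 ± 0.13 (adjusted p = 0.173).

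Gapdh encodes the dehydrogenase that makes the NADH of glycolysis, and its mRNA is widely used as a reference in PCR. It stood at 175, 287, 276 and 272 CPM in CON and at 199, 248, 221, 182 and 251 CPM in MAL. In MAL-BG it ranged from 96.8 to 215 CPM with a median of 127 CPM. Of the 7 MAL-BG libraries, 4 were at or below 127 CPM, under every CON and MAL library, and 3 were at 180 to 215 CPM. MAL-BG 1, at 180 CPM, also lay below every MAL library. Gapdh fell by 0.75 ± 0.22 log2 units against CON, or 1.68-fold (adjusted p = 0.00995). Its log2 difference from MAL was -0.55 ± 0.20 (adjusted p = 0.0371), just within the fold threshold. Gapdh was called lower against MAL in 6 of 26 alternatives, for example at -0.66 without MAL-BG 5 or without MAL-BG 6. It lost the adjusted p in 10 (up to 0.126), namely without MAL 2, 3 or 5, without MAL-BG 1, 2, 3, 4 or 7, without the 3 CON and MAL libraries lowest in choroid plexus genes, and with length and GC offsets and mean log2 scaling.

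Pgk1 and Pgam1 follow Gapdh in the pathway: phosphoglycerate kinase 1 makes ATP, and phosphoglycerate mutase 1 prepares the substrate of enolase. Pgk1 averaged 43.5 ± 14.3 CPM in CON (n = 4), 38.9 ± 12.7 in MAL (n = 5) and 30.4 ± 5.2 in MAL-BG (n = 7), with a log2 difference from CON of -0.52 ± 0.23 (adjusted p = 0.0798) and from MAL of -0.36 ± 0.22 (adjusted p = 0.194). Without CON 1 the difference from CON was -0.73 (adjusted p = 0.00785). Pgam1 was the lowest of the 10, at 12.8, 23.7, 21.2 and 23.2 CPM in CON and 11.2, 19.1, 17.7, 10.6 and 22.4 CPM in MAL. In MAL-BG it ranged from 5.9 to 16.5 CPM with a median of 8 CPM, from counts that were as low as 77 in a library. The same libraries as for Gapdh, MAL-BG 2, 3, 4 and 7, lay below every CON and MAL library. Pgam1 fell by 0.95 ± 0.30 log2 units against CON, or 1.93-fold (adjusted p = 0.0158), the largest fall among the 10. Without CON 2 the adjusted p was 0.0516. Its log2 difference from MAL was -0.63 ± 0.28 (adjusted p = 0.0789), and it was called lower in 5 of 26 alternatives.

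Pkm, pyruvate kinase of muscle and most other tissues, did not pass the test. It averaged 524 ± 117 CPM in CON (n = 4), 476 ± 84.2 in MAL (n = 5) and 440 ± 68.6 in MAL-BG (n = 7), with log2 differences of -0.25 ± 0.16 from CON (adjusted p = 0.214) and -0.11 ± 0.15 from MAL (adjusted p = 0.564). These became 0.13 and 0.20 with length and GC offsets and mean log2 scaling. The counts do not separate the splice forms of pyruvate kinase that the gene makes.

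Ldha encodes the lactate dehydrogenase subunit that favours lactate production. It stood at 159, 194, 196 and 193 CPM in CON and at 144, 192, 168, 171 and 172 CPM in MAL. In MAL-BG it ranged from 154 to 315 CPM with a median of 243 CPM. All MAL-BG libraries except MAL-BG 6 (154 CPM) lay above every CON and MAL library. The log2 difference was 0.38 ± 0.15 from CON (adjusted p = 0.0439) and 0.51 ± 0.14 from MAL (adjusted p = 0.00653), in both cases below the fold threshold. Against CON the adjusted p was lost (up to 0.176) without any 1 of the CON libraries, without MAL 3, MAL 5 or MAL-BG 5, and with upper-quartile scaling, the filter of more than 50 counts, the 2 groups fitted alone, thinned libraries or length and GC offsets. Against MAL it held in all 26 alternatives. Without MAL-BG 6 the difference from MAL was 0.59 (adjusted p = 0.000353), which passed it.

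**Figure D2:**
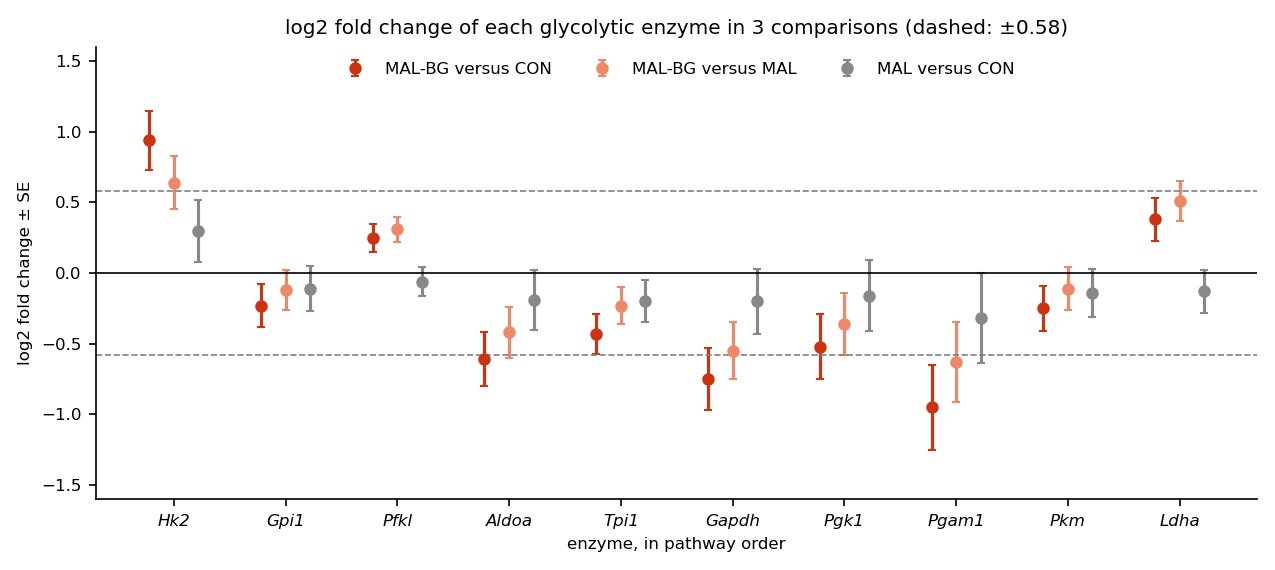
log2 fold change (y axis) of each enzyme in pathway order (x axis) in the 3 comparisons between groups, as points with ± SE bars and dashed lines at 0.58 in either direction. Hk2, Pfkl and Ldha lie above 0 in both comparisons of MAL-BG, and the other 7 enzymes lie below it (Gpi1 and Pkm turned positive under 1 other scaling). The MAL versus CON values lie between -0.32 and 0.30.

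None of the 10 enzymes passed the test between MAL and CON. Of 14565 genes tested, 0 were called (0%) by edgeR, with 212 at an unadjusted p under 0.05, and DESeq2 also called 0, with 241 at that level. The log2 differences of the enzymes ran from -0.32 ± 0.32 for Pgam1 to 0.30 ± 0.22 for Hk2, 9 of 10 were negative, and each adjusted p was 0.999. The SEs were up to 0.32, and a p that misses the threshold does not show that the groups were alike.

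The 2 enzymes that moved most against CON are shown with the 250 bases upstream of their start, because several glycolytic genes are known targets of hypoxia-inducible factor. Capitals mark the core letters of its response element, ACGTG or GCGTG, on either strand (CACGT or CACGC as written here). Sequences are from RefSeq on GRCm38.p6, in which all 10 genes had an entry, and are written 5′ to 3′ on the strand of the gene. Hk2 lies on the minus strand of chromosome 6 (82725025 to 82774454) and Pgam1 on the plus strand of chromosome 19 (41911871 to 41918665).
Hk2, chr6:82774455-82774704, minus strand: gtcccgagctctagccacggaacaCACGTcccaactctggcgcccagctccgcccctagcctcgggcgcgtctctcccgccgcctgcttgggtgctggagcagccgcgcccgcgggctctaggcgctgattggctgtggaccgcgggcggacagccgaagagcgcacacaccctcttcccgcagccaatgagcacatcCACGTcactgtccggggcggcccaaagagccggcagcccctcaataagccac
Pgam1, chr19:41911621-41911870, plus strand: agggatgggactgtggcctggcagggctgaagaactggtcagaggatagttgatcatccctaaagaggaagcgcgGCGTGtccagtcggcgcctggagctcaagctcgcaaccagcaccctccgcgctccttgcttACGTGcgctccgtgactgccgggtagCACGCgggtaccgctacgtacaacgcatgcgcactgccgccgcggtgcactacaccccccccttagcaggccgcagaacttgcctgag
Hk2, which rose, held 2 such cores and Pgam1, which fell, held 3. In all, 8 of 10 enzymes held a core upstream of at least 1 annotated start, and Gpi1 and Tpi1 held none. Counted per start, 10 of the 14 windows of these genes held a core. Such letters are common, since 38.6% of 32851 RefSeq promoters had 1 or more in the same window, and a match is not a binding site.

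Per kilobase of annotated exon, the mean level in CON was 199 ± 44.1 CPM (SD, n = 4) for Aldoa, 105 ± 23.4 for Pkm, 61.1 ± 12.5 for Gapdh, 56 ± 12.6 for Tpi1, 56 ± 5.39 for Ldha, 39.5 ± 11.1 for Hk2 and 38 ± 6.82 for Gpi1. Pgk1 (19.4 ± 6.38), Pfkl (18.3 ± 0.733) and Pgam1 (10.2 ± 2.55) were lowest. The values for Gapdh, Tpi1 and Ldha differed by less than their spread, as did those for Hk2 and Gpi1 and those for Pgk1 and Pfkl. In MAL-BG, Aldoa (131 ± 28.6, n = 7) and Pkm (87.9 ± 13.7) still led, followed by Hk2 (75.9 ± 19.2) and Ldha (72.8 ± 14.4), then Tpi1 (41.7 ± 3.88), Gapdh (36.4 ± 12.3) and Gpi1 (32.5 ± 6.78). Hk2 and Ldha differed there by less than their spread. The summed CPM of the 10 enzymes was 1848 to 2588 in CON, 1955 to 2549 in MAL and 1926 to 2474 in MAL-BG, ranges that overlapped.

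These levels carry an uncertainty, because several of the enzymes have near-identical processed copies in the mouse genome. Of all 42-base windows in the longest annotated transcript, the share also found in transcripts of other genes was 68.1% for Pgk1, 41.8% for Pgam1, 40.6% for Pkm, 29.5% for Gapdh, 23.5% for Ldha, 19.8% for Aldoa, 12.5% for Gpi1 and 10.9% for Tpi1. It was 0.271% for Pfkl and 0% for Hk2. Reads from shared windows may have been dropped or assigned elsewhere, so the level of Pgk1 in particular cannot be compared with that of Hk2. Exons of Gpi1, Aldoa, Tpi1 and Gapdh also overlap a gene on the opposite strand (Gm26762, Fam57b, Spsb2 and Iffo1), Pkm overlaps Gm49759 on its own strand, and the sources used here do not state how strand was treated in counting.

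Several other isoenzymes of the same steps fell in MAL-BG. Of 20 listed, 13 were tested, and 6 were called lower against CON (21.7% of all genes) and 7 against MAL (20.2% of all genes), with 0 higher in either. Their median log2 difference was -0.81 against CON and -0.69 against MAL, or -0.28 and -0.32 with length and GC offsets and mean log2 scaling. Aldoc, the aldolase known from astrocytes, fell from 113 ± 51.3 CPM in CON (n = 4) and 107 ± 31.3 in MAL (n = 5) to 23 ± 13.8 in MAL-BG (n = 7), a log2 change of -2.30 ± 0.38 against CON (adjusted p = 0.00025). Eno2, the neuronal enolase, fell from 40.1 ± 20.4 to 5.42 ± 3.49 CPM against CON (-2.89 ± 0.43 log2 units, adjusted p = 0.000109). Pfkp (-1.59 ± 0.37), Pfkm (-1.04 ± 0.26), Hk1 (-0.84 ± 0.21) and the low-level Hkdc1 (-2.88 ± 0.56) completed the 6 called against CON, and these 6 were also called against MAL. Eno1, the ubiquitous enolase, was listed at 1.01 ± 0.376 CPM in CON, and 74.3% of its windows were shared with other genes, so its level is not reliable. It was the additional call against MAL (-1.29 ± 0.43 log2 units).

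Some isoenzymes did not pass the test. Hk3, the hexokinase of myeloid cells, stood at 159 ± 62.5 CPM in CON and 194 ± 43.3 CPM in MAL-BG (log2 difference 0.29 ± 0.22, adjusted p = 0.291). Ldhb, the subunit that favours pyruvate, differed by -0.27 ± 0.15 from CON (adjusted p = 0.161) and by -0.07 ± 0.15 from MAL (adjusted p = 0.736). Adpgk (0.62 ± 0.44 from CON, adjusted p = 0.258), Bpgm (0.09 ± 0.16) and Eno3 (-0.02 ± 0.16) also did not pass. The 7 isoenzymes that failed the filter included Gapdhs, Pgk2, Pgam2, Eno1b, Pklr and Ldhc.

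Within a step, the share held by the listed enzyme does not depend on library scaling. It was computed from counts per kilobase and compared by a two-sided exact permutation test over libraries, with p adjusted over the 12 pairs of family and comparison. The smallest p this design allows is 0.00303 against CON, 0.00126 against MAL and 0.00794 for MAL against CON. Pfkl made up 58.3, 35.9, 40 and 38% of the summed Pfkl, Pfkm and Pfkp in CON, 51.5, 37.1, 40.5, 60.2 and 41.9% in MAL, and 49 to 72.9% with a median of 67.4% in MAL-BG. The means were 43.1% in CON and 46.2% in MAL against 65.7% in MAL-BG, and both differences passed (exact permutation adjusted p = 0.0253 for each). CON 1 (58.3%), MAL 1 (51.5%) and MAL 4 (60.2%) lay within the range of MAL-BG. Aldoa made up 81.7 to 91.4% of Aldoa and Aldoc in CON, 82.1 to 86.4% in MAL and 88 to 97.7% in MAL-BG, with a median of 96.6%. Its share was higher in MAL-BG by 8.62 percentage points against CON (exact permutation adjusted p = 0.0273) and by 10.2 against MAL (exact permutation adjusted p = 0.0253), while Aldoa itself fell against CON. Against CON this no longer passed without MAL-BG 1 (exact permutation adjusted p = 0.0519).

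The shares of Hk2 and Ldha lay closer to the threshold. Hk2 made up 42.8, 40.7, 40.7 and 42.6% of Hk1, Hk2 and Hk3 in CON, 47.6, 43.2, 44.4, 50.5 and 45.4% in MAL, and 39.1 to 66.4% with a median of 58.5% in MAL-BG. Every MAL library lay above every CON library, and the mean share was 4.5 percentage points higher in MAL than in CON (exact permutation adjusted p = 0.0379). That result did not hold when any of the 9 CON or MAL libraries was left out (exact permutation adjusted p from 0.05 to 0.0875). The remaining MAL libraries still lay above the remaining CON libraries each time, by 3.42 to 5.26 percentage points in the mean. Fewer libraries allow fewer permutations, which raises the smallest p, so this loss cannot show that the result hung on single libraries. The result did not hold either with counts in place of counts per kilobase (exact permutation adjusted p = 0.127). The MAL-BG mean of 55.8% was 14.1 percentage points above CON, with an adjusted p of 0.05 (exact permutation) that did not pass, and 9.63 above MAL (exact permutation adjusted p = 0.0758). MAL-BG 5 was the lowest library, at 39.1%, and without it the differences were 16.9 and 12.4 percentage points (exact permutation adjusted p = 0.019 for each). Ldha made up 17.4 ± 2.25% of Ldha and Ldhb in CON (n = 4), 18 ± 1.96% in MAL (n = 5) and 24.6 ± 5.3% in MAL-BG (n = 7). The difference from MAL of 6.58 percentage points passed (exact permutation adjusted p = 0.0379), and the difference from CON of 7.16 did not (exact permutation adjusted p = 0.05). The difference from MAL no longer passed without any 1 of the 5 MAL libraries (exact permutation adjusted p from 0.05 to 0.0818) or without MAL-BG 1, 3 or 4 (exact permutation adjusted p from 0.0519 to 0.0606).

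**Figure D3:**
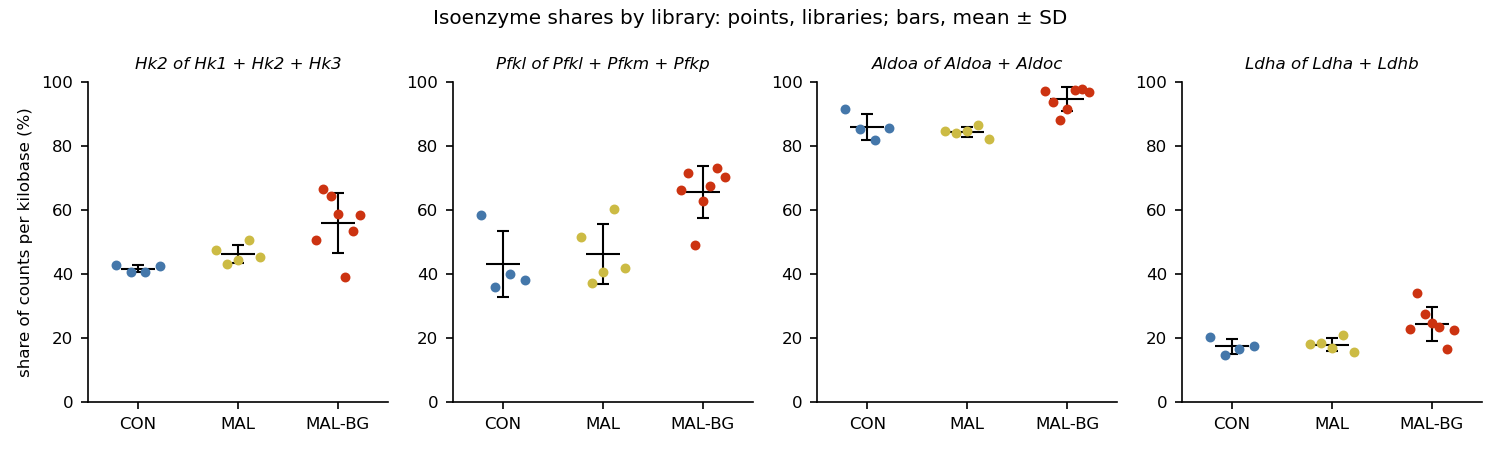
Share in percent (y axis, 0 to 100) of Hk2, Pfkl, Aldoa and Ldha among the counts per kilobase of their isoenzymes, for each CON, MAL and MAL-BG library (points) with mean ± SD (bars). Pfkl rose from a mean of 43.1% in CON to 65.7% in MAL-BG, and Aldoa from 85.9 to 94.5%.

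Several transporters that bring sugar in or carry lactate across the membrane rose in MAL-BG. Of 9 tested, 4 were called higher against CON (11.4% of all genes) and 5 against MAL (10.2% of all genes), and 0 lower in either, with median log2 differences of 0.55 and 0.66. Slc2a5, a hexose transporter of microglia, rose from 242 ± 71.3 CPM in CON and 255 ± 45.6 in MAL to 591 ± 101 CPM in MAL-BG (1.29 ± 0.19 log2 units against CON, adjusted p = 0.000109). Slc2a3, a high-affinity glucose transporter, rose by 1.36 ± 0.34 log2 units against CON (adjusted p = 0.00441). The monocarboxylate carriers Slc16a1 (1.33 ± 0.31, adjusted p = 0.00275) and Slc16a3 (0.66 ± 0.19, adjusted p = 0.00958) rose as well. Slc2a8 was the additional call against MAL (0.66 ± 0.15, adjusted p = 0.00224). Slc2a1, the glucose transporter of brain endothelium, did not pass (-0.12 ± 0.28 from CON, adjusted p = 0.75), nor did Bsg, the chaperone of the lactate carriers (0.25 ± 0.27, adjusted p = 0.478).

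The pentose phosphate pathway branches from glucose 6-phosphate and supplies NADPH and ribose. Of its 7 enzymes, 5 were called higher against CON (11.4% of all genes) and 2 against MAL (10.2% of all genes), and 0 lower in either. Rpia rose from 23.2 ± 1.92 CPM in CON to 41.7 ± 7.01 in MAL-BG (0.85 ± 0.15 log2 units, adjusted p = 0.000341). Pgd (0.66 ± 0.21), Tkt (0.66 ± 0.15), Taldo1 (0.62 ± 0.14) and Pgls (0.59 ± 0.18) rose against CON, and Rpia and Pgls were the calls against MAL. By the adjusted p alone the same count, 5 of 7, was higher against MAL. G6pdx, the entry enzyme, did not pass (-0.17 ± 0.36 from CON, adjusted p = 0.729), nor did Rpe (0.06 ± 0.14, adjusted p = 0.762).

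Genes of the steps after pyruvate were called lower about as often as all genes were (21.7% against CON and 20.2% against MAL). Of 14 genes for pyruvate entry into mitochondria, 4 were called lower and 0 higher against CON, and 3 lower and 0 higher against MAL. Pdha1, a subunit of pyruvate dehydrogenase, fell by 0.68 ± 0.17 log2 units against CON (adjusted p = 0.00384). The kinases that inhibit that complex, Pdk2 (-0.80 ± 0.22, adjusted p = 0.00688) and Pdk4 (-1.51 ± 0.55, adjusted p = 0.0333), and a regulatory subunit of its phosphatase, Pdpr (-2.25 ± 0.37, adjusted p = 0.000214), fell against CON. The calls against MAL were Pdk2, Pdpr and the phosphatase Pdp2. Pdk1, the kinase with the largest counts, did not pass (0.07 ± 0.14, adjusted p = 0.703). Of 16 genes of the TCA cycle, 3 were called lower and 0 higher in each comparison with MAL-BG, among them Idh3a (-1.15 ± 0.25 against CON) and Idh3b (-0.74 ± 0.21).

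Of 14 regulators of glycolysis tested, 1 was called higher (11.4% of all genes) and 2 lower (21.7%) against CON, and 2 higher (10.2%) and 1 lower (20.2%) against MAL, so the list gave no count far above that over all genes. Vhl, which targets hypoxia-inducible factor for degradation, rose from 75.3 ± 6.42 CPM in CON to 137 ± 21.2 in MAL-BG (0.86 ± 0.12 log2 units, adjusted p = 7.1e-05). Pfkfb3, which makes the activator of phosphofructokinase, fell from 247 ± 55.3 to 147 ± 30.8 CPM against CON (-0.75 ± 0.21, adjusted p = 0.00917), and differed by -0.24 ± 0.20 from MAL (adjusted p = 0.357). Mlxip, a glucose-sensing transcription factor, fell by 0.61 ± 0.23 against CON (adjusted p = 0.0406). Egln2, a prolyl hydroxylase of the oxygen-sensing pathway, rose by 0.60 ± 0.11 against MAL (adjusted p = 0.00036). Hif1a did not pass (0.20 ± 0.14 from CON, adjusted p = 0.267), nor did Mlxipl, a further glucose-sensing factor (0.09 ± 0.28, adjusted p = 0.804).

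Of 12 hypoxia targets outside glycolysis, 1 was called higher (11.4% of all genes) and 3 lower (21.7%) against CON, and 2 higher (10.2%) and 3 lower (20.2%) against MAL, close to the shares over all genes. Vegfa, the vascular growth factor, fell from 45.8 ± 25.8 CPM in CON to 9.55 ± 5.46 in MAL-BG (-2.26 ± 0.41 log2 units, adjusted p = 0.000474). Ddit4 (-1.03 ± 0.22, adjusted p = 0.00156) and Car9 (-0.98 ± 0.33, adjusted p = 0.0213) fell, and the collagen prolyl hydroxylase P4ha1 rose (0.66 ± 0.15, adjusted p = 0.00245). Ankrd37 was the additional call against MAL (0.95 ± 0.26, adjusted p = 0.00782).

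**Figure D4:**
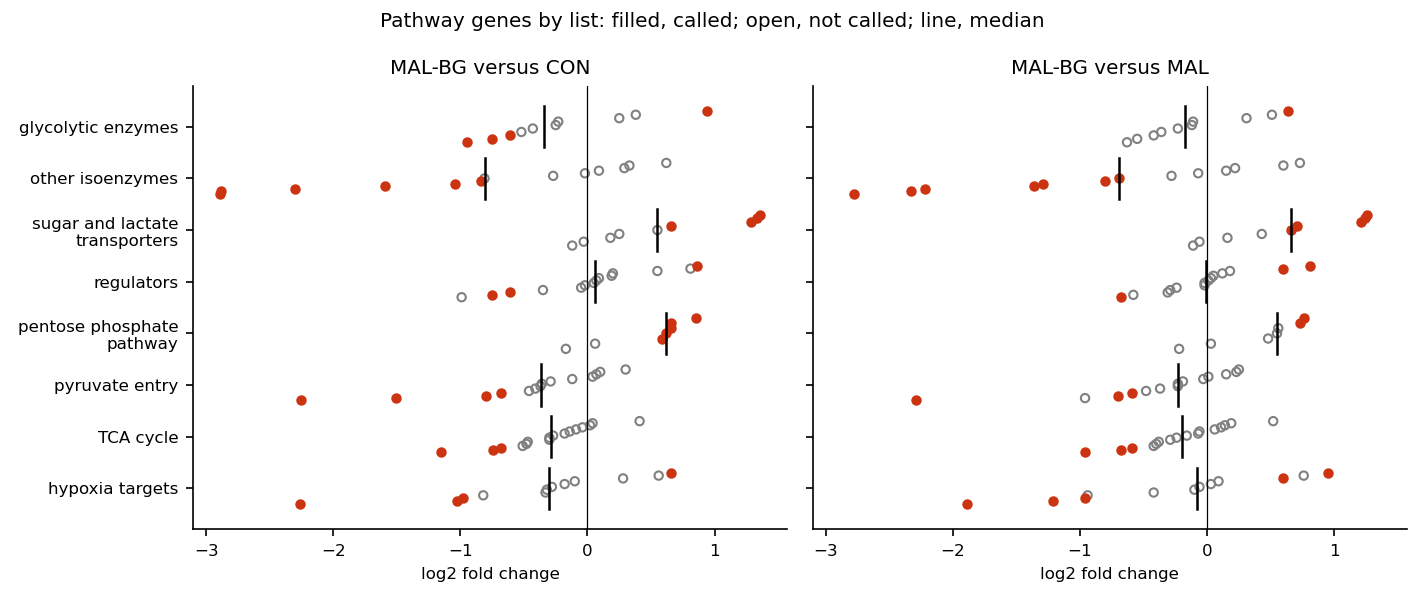
log2 fold change (x axis) of each tested gene by list (y axis) for MAL-BG against CON (left) and against MAL (right), with called genes filled, others open and the list median as a vertical line. The transporter and pentose phosphate lists have medians of 0.55 and 0.62 against CON, and the other isoenzymes of -0.81.

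Within the CON and MAL groups, levels of several enzymes moved with marker genes of other cells, but within MAL-BG they did not follow the same order. CON 1, MAL 1 and MAL 4, the CON and MAL libraries with the lowest choroid plexus and neuron sums of their groups, had the lowest Gpi1, Aldoa, Tpi1, Gapdh, Pgk1, Pgam1 and Pkm of their groups and the highest Hk2. For CON 1 the Gapdh level was 175 CPM against 272 to 287 in the other CON libraries, and Hk2 was 334 CPM against 193 to 220. MAL-BG 1, 5 and 6 had the lowest neuron sums of their group (37.6, 26.3 and 17.6 CPM). They had its highest Aldoa (449, 500 and 454 CPM) and Gapdh (180, 212 and 215 CPM). MAL-BG 3, highest of its group in choroid plexus (16377 CPM) and neuron sums (79.7 CPM), had 321 CPM of Aldoa and 107 CPM of Gapdh. In MAL-BG, 9 of 9 choroid plexus markers, 8 of 9 neuron markers, 5 of 8 astrocyte markers and 5 of 6 ependymal markers were called lower against CON. Over all genes tested, 21.7% were called lower and 11.4% higher against CON. The choroid plexus gene Ttr averaged 23106 ± 11871 CPM in CON and 4746 ± 3670 CPM in MAL-BG, and the neuronal gene Snap25 averaged 59.2 ± 30.7 and 4.74 ± 2.69 CPM. The summed neuron markers were 52.3 to 283 CPM in CON, 81.5 to 235 in MAL and 17.6 to 79.7 in MAL-BG, and no marker of these lists was at 0 in all libraries. Of 12 microglial markers 7 were called higher against CON, among them Cx3cr1 (3075 ± 907 to 7720 ± 2347 CPM). All 12 neutrophil markers tested were called higher against CON, and 2 of 8 endothelial markers, Cldn5 and Pecam1, were called higher. Of the other marker lists, 3 of 8 oligodendrocyte and 2 of 4 tested lymphocyte markers were called higher, and 1 of 6 monocyte and 1 of 7 border macrophage markers lower. The monocyte and border macrophage counts were not above the share over all genes. The haemoglobin genes Hba-a1, Hba-a2, Hbb-bs and Hbb-bt were at 0 in all 16 libraries. Alas2, the other erythroid gene listed, was at a low level, with 1.19 ± 0.54 CPM in CON and 2.99 ± 1.02 in MAL-BG. It was called higher against CON (1.32 ± 0.47 log2 units, adjusted p = 0.0309). Of 7 early-response genes, which rise during cell isolation, 4 were called lower against CON. CON 1 and MAL 4 were also highest of their groups in microglial markers (28957 and 31475 CPM) and early-response genes (28260 and 34496 CPM). They were highest in border macrophage markers (630 and 764 CPM) and lowest in endothelial markers (461 and 430 CPM). MAL 1 came next after MAL 4 for microglial markers (25565 CPM) and early-response genes (22752 CPM). MAL 1 did not do so for border macrophage (290 CPM) or endothelial markers (899 CPM). The part of these cell types and of the response to isolation in the enzyme differences was not tested.

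The calls were also counted without libraries that stood apart. Without CON 1, MAL 1 and MAL 4 together, a setting chosen after the data were seen that leaves the CON and MAL libraries richer in choroid plexus genes, 5 of 10 enzymes were called against CON: Hk2 higher, and Aldoa, Gapdh, Pgk1 and Pgam1 lower (Pgk1 -0.65, adjusted p = 0.00234). Against MAL 2 were called, Hk2 higher and Pgam1 lower (-0.83, adjusted p = 0.0357). More of all 14565 genes were also called without these libraries, 5622 against CON and 5148 against MAL. The main setting called 1659 higher and 3161 lower against CON, and 1479 and 2944 against MAL. Without MAL-BG 5, the library highest in neutrophil genes, 5 enzymes were called against CON and 3 against MAL. Over all genes 4883 and 4546 were called in that setting. MAL-BG 5 had the lowest Hk2 (308 CPM) and the highest Gpi1 (305 CPM), Aldoa (500 CPM), Tpi1 (128 CPM), Pgk1 (40.3 CPM), Pgam1 (16.5 CPM) and Pkm (591 CPM) of the 7 MAL-BG libraries. MAL-BG 6, with the lowest neutrophil sum of its group (197 CPM), had the highest Gapdh (215 CPM) and the lowest Ldha (154 CPM).

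**Figure D5:**
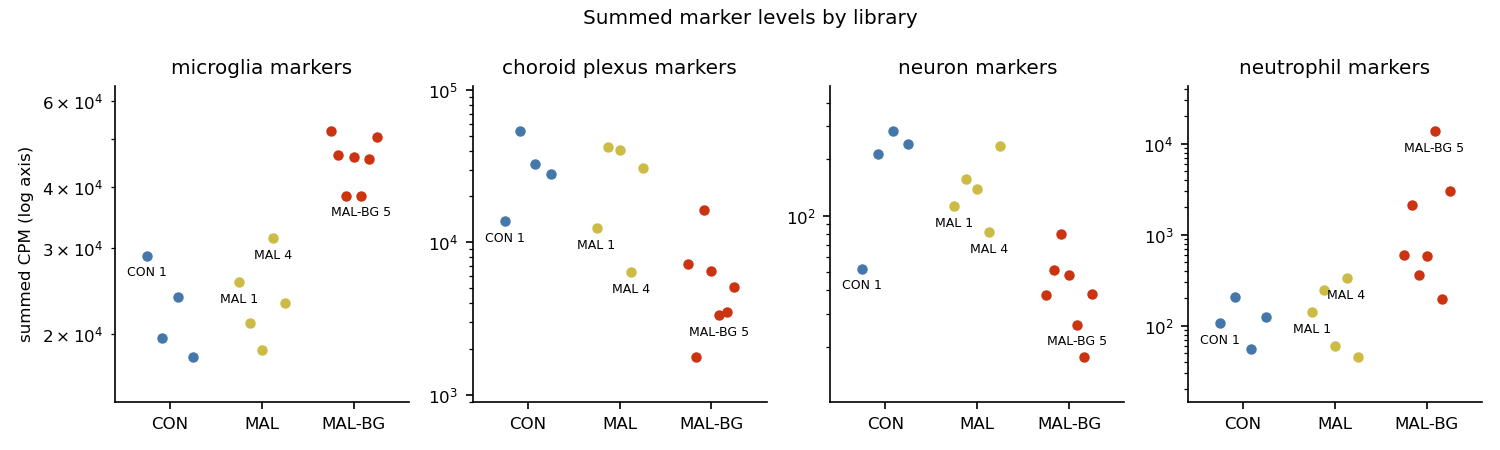
Summed CPM (y axis, log scale) of the microglia, choroid plexus, neuron and neutrophil markers in each CON, MAL and MAL-BG library, with 4 libraries named. MAL-BG libraries were highest in microglial markers (38383 to 51989 CPM), CON 1, MAL 1 and MAL 4 were lowest of their groups in choroid plexus and neuron markers, and MAL-BG 5 was highest in neutrophil markers (13742 CPM).

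Across the 16 libraries, the genes whose log2 CPM followed each enzyme most closely differed between enzymes. Hk2 was closest to Foxj2 (Pearson r = 0.983) and Slc43a2 (0.982), and Pfkl to Map2k2 (0.908), Rxra and Mvb12b. Gapdh was closest to Ndufa10 (0.991), a complex I subunit, and to Ndfip1 and Rpl15. Aldoa was closest to Atp5b (0.98), Anxa6 and Got2, Pgk1 to Atp5o (0.966), Calm3 and Ecsit, and Tpi1 to Aes (0.929), Dnajc15 and Mdh2. Another of the 10 enzymes was among the 3 closest genes for Gpi1 (Pkm, 0.922), Pkm (Gpi1) and Pgam1 (Gapdh, 0.962, and Aldoa, 0.96). The others were Flot2 and Pqlc3 for Gpi1, Mdh2 and Dstn for Pkm, and Hdac11 for Pgam1. Ldha was closest to Fis1 (0.946), Ciapin1 and Mrps18c. These values rest on the same 16 libraries and on the group differences among them, and are given as a description.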

How the data were processed

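Libraries were made by the authors from poly(A) RNA of CD11b+ cells with a stranded kit and sequenced as paired reads. The reads were aligned to GRCm38.p6 with STAR and counted per gene with HTSeq. The submitters' processing notes give HTSeq version 2.5, and the study's methods give a different version. The annotation and strand setting are not given in the sources used here. The deposited values are raw counts per gene, one column a library. Columns name the group and a running number, so library numbers here are those of the columns. The study's code adds a batch term, but no source used here ties a column to a batch, so none was fitted.

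Genes that exceeded 10 counts in 4 or more libraries entered 1 model over the 3 groups in edgeR 4.0.16 (TMM scaling, quasi-likelihood F test, Benjamini-Hochberg adjustment over 14565 genes). The pipeline was tested on simulated data. Alternatives were DESeq2, other scalings, filters and offsets, thinned libraries and each library left out. Pairs of libraries within a group differed by more than counting noise. Levels per kilobase used exon lengths of GENCODE M21. Named were all enzymes, their tested isoenzymes, the called genes of each other list with up to 3 more of large counts, and the 3 genes closest to each enzyme; a few genes under these rules are not reported here. The members and lists were chosen with earlier results of these data known.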

Additional observations from a re-analysis of the deposited data

Results flagged for a closer look

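In groups of 4 to 7 libraries, a library was singled out when its gap to the nearest other exceeded the Dixon limit of its group (0.829 for 4 libraries, 0.71 for 5 and 0.568 for 7). Of 42 sets of values examined, 7 were singled out, where chance gives about 1 in 20 for independent sets. These sets are not independent, since they share the same 16 libraries and several enzymes moved together, so the excess was not tested. CON 1 was low for Tpi1 (103 CPM, nearest other 166), Gapdh (175 CPM, nearest 272), Pkm (349 CPM, nearest 569) and Ldha (159 CPM, nearest 193). MAL-BG 5 was high for Gpi1 (305 CPM, nearest 215) and Pkm (591 CPM, nearest 436). The Pfkl share of phosphofructokinase counts per kilobase was low in MAL-BG 3 (49%, nearest 62.8%). CON 1 was also the CON library with the lowest choroid plexus sum (13799 CPM), and MAL-BG 5 the library with the highest neutrophil sum (13742 CPM). Whether these marker levels bear on the enzyme levels was not tested.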

How the results depend on the processing

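Counts of called enzymes against CON (4) were within 1.5 times of that number, except for 7 with no fold change threshold and 2 without CON 2. Without CON 2, 4081 of all genes were called against CON. Counts within that range included 6 with length and GC offsets and 3 when these were combined with mean log2 scaling. With single libraries left out the counts against CON ran from 2 (without CON 2) to 5. Against MAL (1) the count was 2 with a filter of more than 50 counts, 4 with no fold change threshold, 3 with length and GC offsets, 3 when these were combined with mean log2 scaling, and 2 without the CON and MAL libraries lowest in choroid plexus genes. With single libraries left out it ran from 0 (without MAL 3 or MAL-BG 2) to 4 (without MAL-BG 6). It was 0 for MAL versus CON throughout. In the main setting 1659 of all 14565 genes were called higher and 3161 lower against CON, and 1479 and 2944 against MAL. With no fold change threshold, 6566 were called against CON and 6457 against MAL. With length and GC offsets these totals were 4669 and 4240, and with mean log2 scaling added 5627 and 5167. The filter of more than 50 counts left 3506 of 12295 called against MAL. Without MAL 3 that total was 3854, without MAL-BG 2 4081 and without MAL-BG 6 4850. It was 5148 without the 3 CON and MAL libraries lowest in choroid plexus genes.

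Of 780 log2 differences of single enzymes, 5 changed sign, all with offsets and mean log2 scaling: Gpi1 (0.13 against CON, 0.21 against MAL), Pkm (0.13 and 0.20) and Pfkl for MAL versus CON (0.01). That setting also moved the median of all genes from -0.04 to 0.21 against CON and from -0.03 to 0.20 against MAL.

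With counts in place of counts per kilobase, the Hk2 share differed by 16.7 percentage points against CON and 11.3 against MAL, both then passing, and by 5.46 between MAL and CON, no longer passing, and the Ldha share by 9.72 against CON, passing. With libraries left out, the differences ran from 12.4 to 16.9 (Hk2, CON), 7.87 to 12.4 (Hk2, MAL), 3.42 to 5.26 (Hk2, MAL versus CON), 7.21 to 10.5 (Aldoa, CON), 5.57 to 8.47 (Ldha, CON) and 4.99 to 7.89 (Ldha, MAL). Between MAL and CON, the shares of Pfkl (-0.314 to 8.28), Aldoa (-3 to 0.245) and Ldha (-0.265 to 1.54) changed sign. Where a setting changed a result, the cause was not tested.

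No paired analysis was possible because the running numbers of the columns match no sample title. Batch could not be modelled, since no source used here ties a column to a batch. Pgam1 had the lowest counts of the 10 enzymes (77 to 306 a library).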
